A study of Mus musculus with 36 samples.

Results

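The axon guidance ligand and receptor genes described here are the semaphorins, slits, netrins and ephrins and their plexin, Robo and Eph receptors, followed across 6 mouse brain regions and 2 genotypes. They were taken by symbol alone, as every gene of the deposited gene table whose name begins with Sema, Plxna, Plxnb, Plxnc, Plxnd, Epha, Ephb, Efna, Efnb, Ntn, Robo or Slit followed by a number. That gave 62 of the 19025 genes in the table: 20 semaphorins, 3 slits, 4 netrins, 5 ephrin-A genes and 3 ephrin-B genes, counted as 35 ligands, and 9 plexins, 4 Robo genes, 9 EphA receptors and 5 EphB receptors, counted as 27 receptors. No measured value entered this rule, but the set was chosen with earlier results of these data known. RNA was sequenced from brain tissue of adult C57 mice of 6 to 7 weeks, either wild type (WT) or with a knock-in allele (KI) of Maoa, which encodes the monoamine-degrading enzyme monoamine oxidase A. Each genotype had 3 libraries from each of the regions labelled HP, PFc, Nac, STR, SN and VTA, 36 libraries in all. The labels give no other allele, agent or treatment, do not spell out the regions, and do not say how tissue was taken or whether animals were pooled. They also leave unsaid whether the 3 libraries of a group are from different animals, so the p-values reflect only how much these libraries varied, which may be technical variation.

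Axon guidance ligands are secreted or membrane-bound proteins that steer growing axons by attraction or repulsion. Semaphorins act on plexins, often together with neuropilins. Slits act on Robo receptors, netrins act on DCC and UNC5 receptors, and ephrins act on Eph receptor tyrosine kinases, with a strong preference of ephrin-A for EphA and of ephrin-B for EphB. In the adult brain many of these genes remain expressed in neurons and glia, where Eph, semaphorin and plexin proteins are known to act at synapses and in myelinating cells.

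Library totals lay between 15145631 and 18863503 estimated counts, with 16.4 ± 0.691 M counts in KI (SD, n = 18 libraries) and 17.9 ± 0.47 M counts in WT (n = 18). Levels are given as CPM, a count relative to the TMM-scaled total of its library, when 1 gene is compared across libraries, and as TPM, which is also per transcript length, when genes are compared with each other. The altered gene itself, Maoa, had 34.0 to 36.7 CPM in WT HP and 37.7 to 48.1 CPM in KI HP, 42.5 to 47.0 against 56.2 to 64.3 CPM in STR, and 52.8 to 76.6 against 80.5 to 97.4 CPM in VTA. In these 3 regions every KI library was above every WT library. The genotypes overlapped in PFc, Nac and SN, and edgeR's adjusted p for Maoa ran from 0.284 to 0.9998 over the 6 regions. Marker lists for regions and cell types showed that some libraries went against their region label. In 8 libraries the mean level of the markers of their own region lay below a midpoint. It was taken between the medians of the libraries whose labels shared that marker list and of the rest. Nac and STR shared the striatal list and SN and VTA the midbrain dopamine list, so a swap within either pair would not show. The 8 were 2 of WT (Nac 2 and VTA 3) and 6 of KI (HP 2, Nac 1, Nac 2, SN 1, SN 2 and STR 3). The library labelled KI HP 2, for example, had 6390 CPM of 11 striatal markers, KI SN 2 had 7070 CPM of them and only 83.1 CPM of 10 midbrain dopamine markers, and WT VTA 3 had 4390 CPM of the striatal and 112 CPM of the midbrain markers. KI PFc 1 had 552 CPM of the cortical markers, where the other PFc libraries had 941 to 1060 CPM. Its mean level of them stayed above the midpoint, and it carried 2250 CPM of the striatal markers. Results are therefore given with all 36 libraries and again with the 28 whose own markers were present. The 28 were kept on their own markers alone, so some also carried those of another region. WT SN 2 had a mean log2(CPM + 1) of 5.79 for the cortical markers, whose midpoint was 5.39. KI SN 3 had 5.86 for the striatal markers, whose midpoint was 5.65. In bulk tissue, fewer cells of a type and less RNA per cell cannot be told apart.

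All 62 genes were detected, at levels spread over more than 2 orders of magnitude. Efnb3, a transmembrane ephrin, was the highest at 132 ± 34.5 TPM (mean ± SD over 36 libraries, range 43.6 to 209). It was followed by Sema7a, a lipid-anchored semaphorin that also binds integrins, at 85.3 ± 33.6 TPM, Efna3, a lipid-anchored ephrin, at 62.6 ± 33.1 TPM, Sema6b, a transmembrane semaphorin, at 62.1 ± 18.1 TPM, and Epha4, an Eph receptor that binds ephrins of both classes, at 58.8 ± 46.7 TPM. The means of the last 3 differed by less than their spread over libraries. At the bottom were Epha2 at 0.86 ± 0.282 TPM, Efna4 at 0.648 ± 0.48 TPM and Epha1 at 0.273 ± 0.274 TPM, the last listed at 0 in some libraries. The median gene of the set stood at 10.4 TPM, against 9.24 TPM for all genes in the table, and 32 of 62 (51.6%) exceeded 10 TPM, against 48.6% of all genes. By family the median was highest for ephrin-B at 22.4 TPM and plexins at 15.4 TPM and lowest for netrins at 4.1 TPM, with semaphorins at 10.4, EphB at 8.96, Robo at 8.4, EphA at 8.38, slits at 8.26 and ephrin-A at 7.42 TPM.

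**Figure D1:**
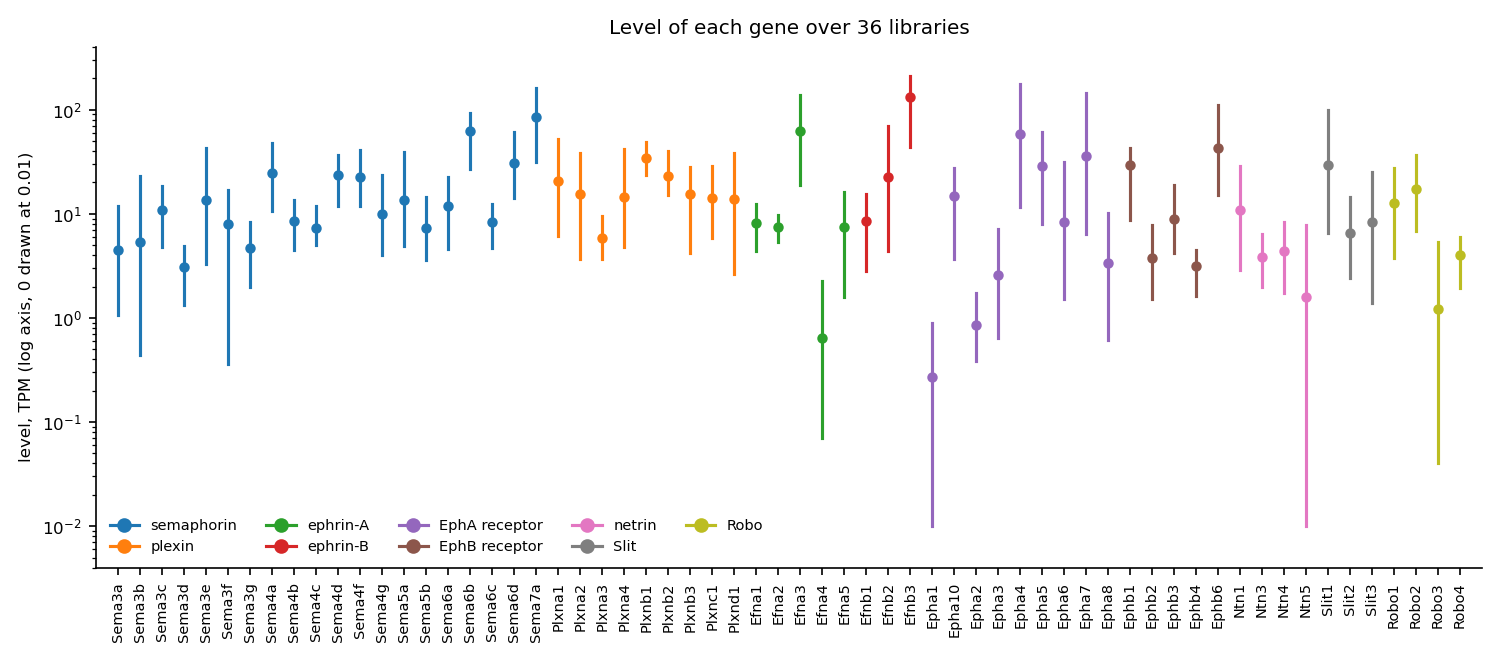
Level of each of the 62 axon guidance genes in TPM on a log axis, grouped by family; points are means over 36 libraries and bars run from the lowest to the highest library, with 0 drawn at 0.01. Efnb3 stands highest at 132 TPM and Epha1 lowest at 0.273 TPM, and the means of every family except the slits, netrins and plexins span more than an order of magnitude.

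The WT libraries were compared across the 6 regions first. In these 18 libraries 42 of the 62 genes differed between regions by edgeR's F test, where 48.0% of all tested genes did. These were 23 of the 35 ligands and 19 of the 27 receptors. By family, 13 of 20 semaphorins passed, 3 of 3 slits, 3 of 4 netrins, 2 of 5 ephrin-A, 2 of 3 ephrin-B, 6 of 9 plexins, 3 of 4 Robo, 7 of 9 EphA and 3 of 5 EphB genes. Those that did not pass were Sema3a, Sema3d, Sema4b, Sema4d, Sema4g, Sema6c, Sema7a, Ntn4, Efna1, Efna2, Efna5, Efnb2, Plxna3, Plxnb1, Plxnd1, Robo1, Epha2, Epha10, Ephb2 and Ephb4. Without the WT Nac 2 and VTA 3 libraries 55 of 62 passed, beside 70.0% of all genes, and without the WT libraries numbered 1 the count was 23, beside 14.2% of all genes. Efnb2, ligand of EphB receptors, was among those added. Its WT Nac libraries stood at 84.4, 15.1 and 107 CPM and its WT VTA libraries at 17.1, 15.9 and 94.4 CPM, so that in each region the library that went against its label was the one that stood apart.

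HP was the region in which most of these genes stood apart. Against the mean of the other 5 regions, 36 of the 62 differed in HP, beside 34.4% of all genes: 22 were higher, as were 17.6% of all genes, and 14 lower, as were 16.7%. PFc had 26 that differed, beside 28.5% of all genes, with 20 higher (16.1% of all genes) and 6 lower (12.4%). For STR the count was 22, beside 20.7%, with 8 higher (12.6%) and 14 lower (8.16%). SN had 9, beside 7.91%, with 4 higher (4.7%) and 5 lower (3.21%). VTA also had 9, beside 7.61%, with 4 higher (4.45%) and 5 lower (3.16%). Nac had 2, beside 1.2%, both of them higher (0.914%) and none lower (0.285%). The median log2 difference of the 62 genes was 0.10 in HP, where that of all genes was -0.03, 0.24 in PFc against -0.02, and -0.21 in STR against 0.01. In HP all 3 libraries lay above each of the other 15 WT libraries for 15 of the 62 genes, as for 6.94% of all genes, and below each of them for 7 (4.41%). The same held for 7 genes above in PFc (4.53%), and for 3 above (3.89%) and 7 below (1.93%) in STR. Without WT Nac 2 and VTA 3 the counts were 42 in HP (beside 45.9% of all genes), 31 in PFc (42.5%), 31 in STR (30.2%), 16 in Nac (16.1%), 27 in VTA (39.1%) and 19 in SN (27.3%). Among the Nac calls of that fit were Efnb2 (log2 difference 1.39, edgeR adjusted p = 0.000873), Plxnd1, the receptor of Sema3e (1.26, edgeR adjusted p = 0.0296), and the repellent Sema3a (1.14, edgeR adjusted p = 0.0331), all higher and none of them called with all libraries. The regional differences given with an adjusted p in the paragraphs that follow kept their direction and their call in that fit. WT STR carried 11100 to 16500 CPM of choroid plexus and ependymal markers, where the other WT regions had 24.7 to 1410 CPM. It also carried 466 to 1360 CPM of 8 thalamic markers, whose mean level in WT STR 2 and STR 3 was above that of every other WT library. Its striatal markers ran from 2110 to 7060 CPM. The oligodendrocyte markers summed to 3860 to 4890 CPM in WT HP and 4740 to 6590 CPM in WT PFc, and to 8020 to 18400 CPM in the other WT regions. Their part in the regional differences was not tested.

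**Figure D2:**
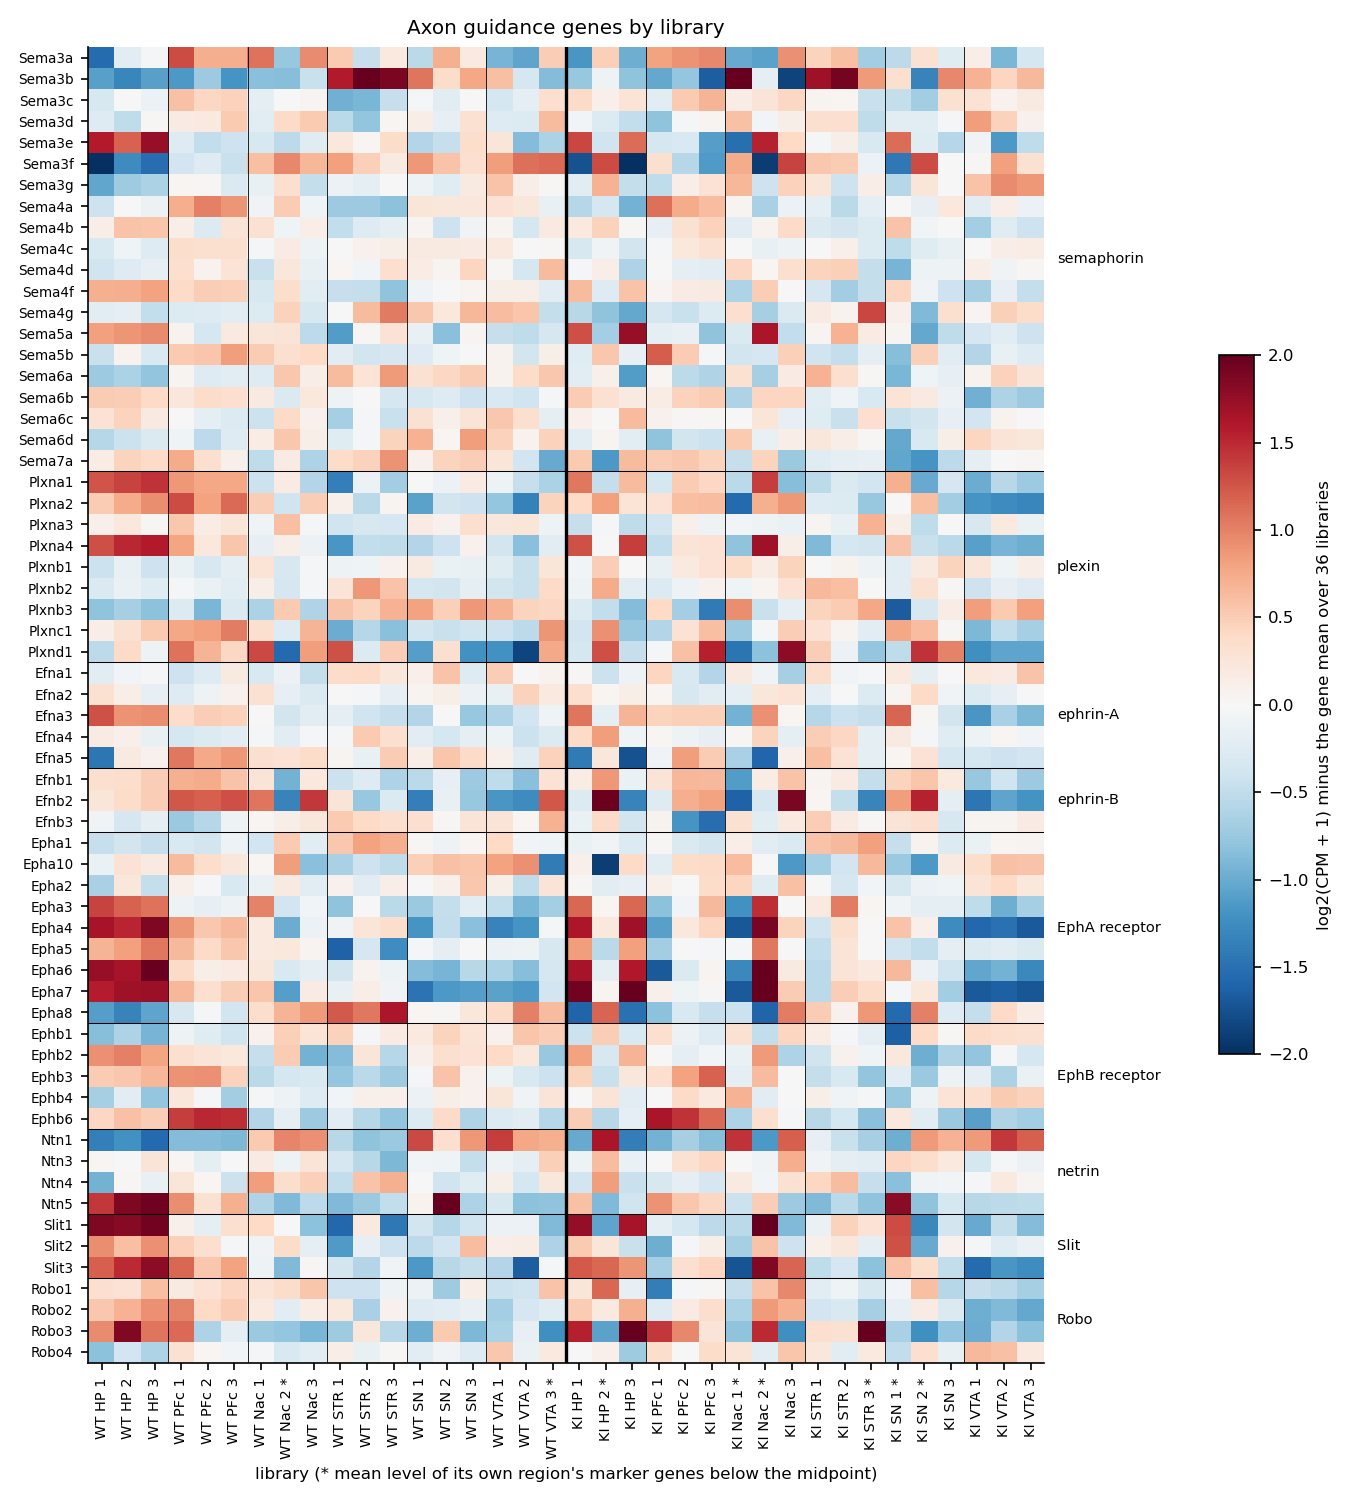
Heat map of the 62 genes (rows, by family) in the 36 libraries (columns, by genotype and region), coloured by log2(CPM + 1) minus the mean of the gene over all libraries; asterisks mark the 8 libraries whose own region's markers lay below the midpoint. In the WT columns HP, with 36 of 62 genes called, shows the most coloured cells, and marked libraries such as KI HP 2 and KI Nac 2 look unlike the other libraries of their group.

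Among the ligands, all 3 slits were higher in HP, as were 17.6% of all genes. Slit1, a secreted ligand of Robo receptors (chr19:41597824-41747275 in GRCm38.p6, as all gene positions here, from RefSeq), had 299, 289 and 312 CPM in the WT HP libraries. In the other 15 WT libraries it lay between 26.4 and 107 CPM, so the groups were far apart, and the log2 difference was 2.18 (SE 0.26, edgeR adjusted p = 2.59e-05). Slit3 was also higher in HP, at 36.7, 45.5 and 56.0 CPM (log2 difference 1.80), and in PFc, at 35.5, 22.8 and 27.7 CPM (log2 difference 1.0, SE 0.26, edgeR adjusted p = 0.0113). The PFc call of Slit3 was lost without the WT libraries numbered 1 (log2 difference 0.74, edgeR adjusted p = 0.281).

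Ntn1, the secreted netrin that attracts or repels axons through DCC and UNC5 receptors (chr11:68209364-68386826), split the regions into a low and a high group. It had 8.88, 10 and 7.68 CPM in WT HP, 13, 13 and 12.7 CPM in PFc and 16.3, 13.6 and 14.2 CPM in STR. In Nac it reached 35.6, 49.3 and 47.1 CPM, in SN 62.4, 31.2 and 45.6 CPM, and in VTA 65.2, 42.7 and 40.5 CPM. Every library of Nac, SN and VTA was thus above every library of HP, PFc and STR. Of these, 49.3 CPM in Nac and 40.5 CPM in VTA belong to WT Nac 2 and WT VTA 3, which went against their label. The log2 differences were 1.29 in VTA (SE 0.16, edgeR adjusted p = 0.000927), 1.17 in SN (SE 0.16, edgeR adjusted p = 0.00191) and 1.08 in Nac (SE 0.16, edgeR adjusted p = 0.0062). Leaving out the WT libraries of 1 number lost the Nac call each time (log2 difference 0.93 to 1.33, edgeR adjusted p 0.0535 to 0.167) and the SN call without number 1 or 3 (0.95 and 1.13, edgeR adjusted p = 0.0953 and 0.104).

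Secreted semaphorins of class 3, which signal through neuropilin and plexin complexes, differed in opposite ways. Sema3f (chr9:107681499-107710475) was lowest in HP, at 1.72, 3.91 and 3.11 CPM, with no overlap with the 7.68 to 24.9 CPM of the other 15 WT libraries (log2 difference -2.44, SE 0.23, edgeR adjusted p = 2.53e-06). It was higher in VTA, at 20, 24.3 and 24.9 CPM (log2 difference 1.15, SE 0.17, edgeR adjusted p = 0.00256), and in Nac, at 16.9, 22.0 and 17.6 CPM (0.80, SE 0.17, edgeR adjusted p = 0.036). The highest values, 24.9 CPM in VTA and 22.0 CPM in Nac, belong to WT VTA 3 and WT Nac 2, which went against their label. The Nac call was lost without the WT libraries of any 1 number (log2 difference 0.73 to 0.86, edgeR adjusted p 0.14 to 0.227). Sema3b (chr9:107597674-107609241) was highest in STR, at 17.4, 35.0 and 21.4 CPM, above the 1.46 to 11.8 CPM of all other WT libraries (log2 difference 2.86, SE 0.24, edgeR adjusted p = 1.53e-06). STR was also the WT region with the choroid plexus and ependymal markers. Sema3b was higher in SN as well, at 11.8, 6.85 and 9.48 CPM (log2 difference 1.19, SE 0.27, edgeR adjusted p = 0.0205), and lower in PFc, at 1.74, 2.7 and 1.7 CPM (-1.43, SE 0.34, edgeR adjusted p = 0.0064). Without the WT libraries numbered 1 neither held (log2 difference 1.06, edgeR adjusted p = 0.223 in SN, and -1.24, edgeR adjusted p = 0.0603 in PFc), and the SN call was lost without number 3 too (1.11, edgeR adjusted p = 0.135). Sema3e, which acts on Plxnd1, was higher in HP at 119, 89.0 and 132 CPM (log2 difference 1.75). Of all 20 semaphorins, 5 were higher (beside 17.6% of all genes) and 7 lower (16.7%) in HP. In PFc 6 were higher (16.1%) and 2 lower (12.4%), and in STR 2 were higher (12.6%) and 4 lower (8.16%).

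Of the 8 ephrins 1 was called in HP, beside 34.4% of all genes: Efna3 was higher there, at 113, 86.3 and 89.0 CPM (log2 difference 1.23). In PFc Efna3, Efna5 and Efnb1 were higher and Efnb3 lower, and in STR Efnb3 and Efna4 were higher and Efna3 lower. Efnb3, the most abundant gene of the set, had 116, 130 and 182 CPM in WT PFc (log2 difference -0.62) and 279, 257 and 246 CPM in WT STR (log2 difference 0.42), with no overlap between these 2 regions.

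**Figure D3:**
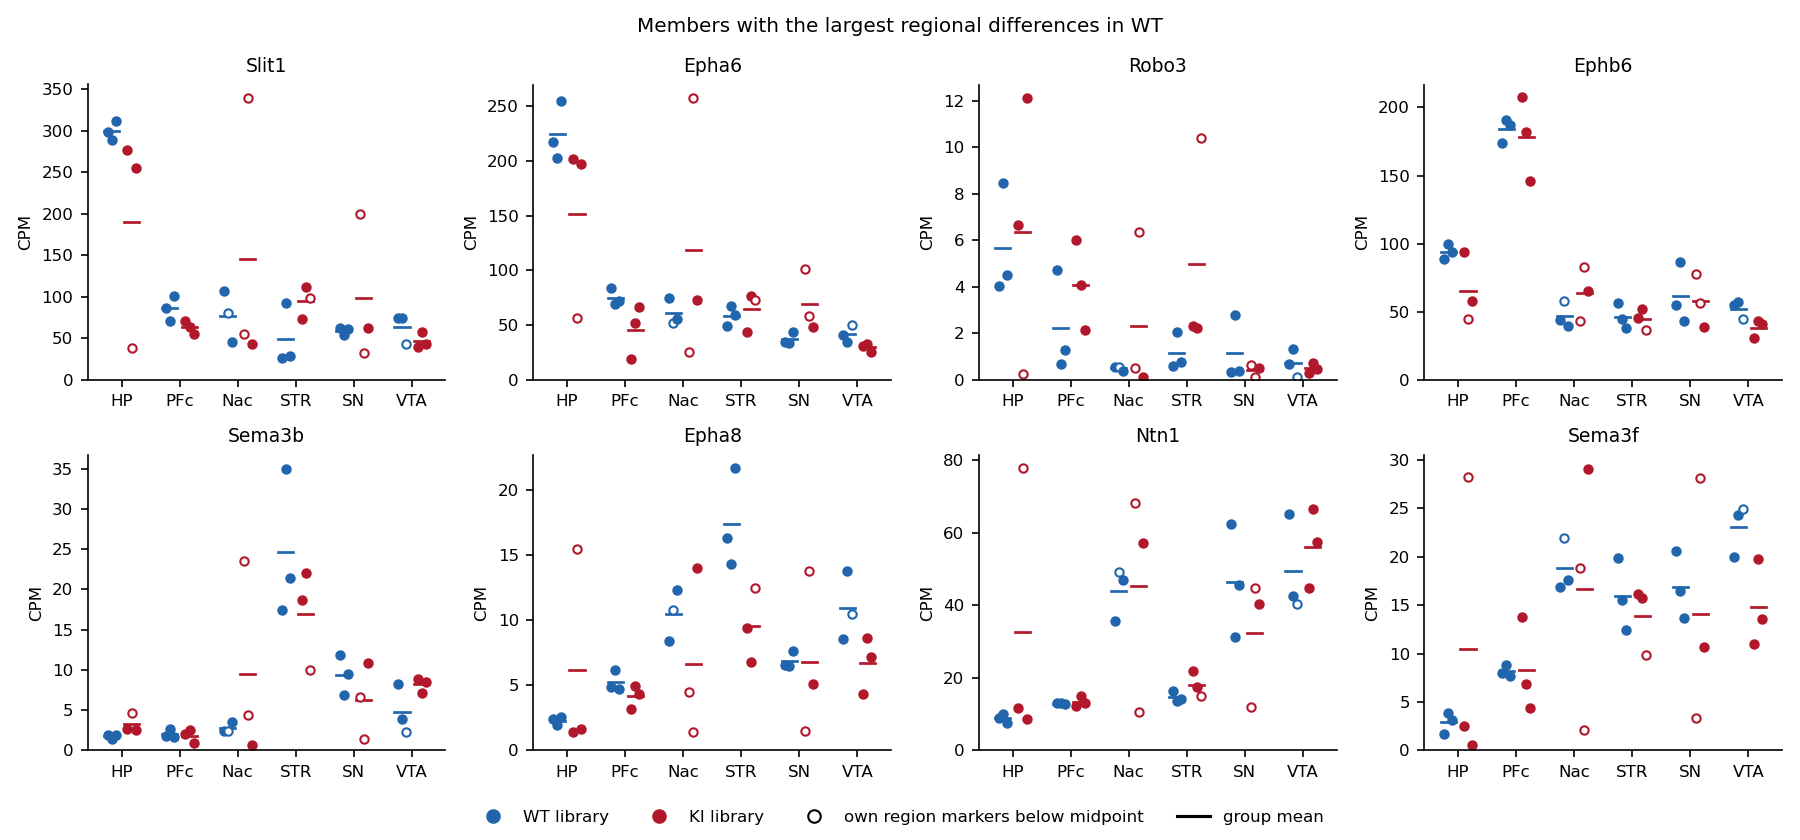
CPM of 8 genes in each of the 36 libraries by region and genotype; points are libraries, lines are group means, and open circles are the libraries whose own region's markers lay below the midpoint. The WT HP libraries of Slit1 and Epha6 lie above all other WT libraries, those of Sema3f below them, and several open circles lie at the level of another region.

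Among the receptors, the EphA family differed in both directions in HP. There 5 of its 9 genes were higher (beside 17.6% of all genes) and 2 lower (16.7%). Epha6, which binds ephrin-A ligands (chr16:59641433-60610911), had 217, 203 and 255 CPM in WT HP and 33.3 to 83.6 CPM in the other 15 WT libraries (log2 difference 2.08, SE 0.12, edgeR adjusted p = 5.14e-08). Epha4 (chr1:77367182-77515107) had 436, 401 and 507 CPM in WT HP and 54.1 to 256 CPM elsewhere (log2 difference 1.87, edgeR adjusted p = 1.99e-05). Epha7 (chr4:28813066-28967503), whose splice forms include one without the kinase domain, had 155, 169 and 170 CPM in HP and 17.9 to 82.1 CPM elsewhere (log2 difference 2.00, edgeR adjusted p = 5.72e-06). For all 3 the HP libraries stood clear of every other WT library. The same genes were low in the midbrain labels. Epha7 had 17.9, 22.7 and 23.4 CPM in SN (log2 difference -1.54, SE 0.26, edgeR adjusted p = 0.00636), and Epha4 had 54.1, 60.7 and 135 CPM in VTA (-1.04, SE 0.27, edgeR adjusted p = 0.033). The SN call of Epha7 was lost without the WT libraries numbered 1 or 3 (log2 difference -1.37 and -1.55, edgeR adjusted p = 0.215 and 0.115), and the VTA call of Epha4 without number 1 or 2 (-0.78 and -0.89, edgeR adjusted p = 0.287 and 0.212). The highest of the Epha4 values in VTA belongs to the library with striatal markers, and without WT Nac 2 and VTA 3 the difference was -1.64 (SE 0.18, edgeR adjusted p = 2.66e-05).

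Epha8, another ephrin-A receptor (chr4:136929419-136956859), ran the other way. It had 2.43, 1.92 and 2.54 CPM in WT HP (log2 difference -2.04, edgeR adjusted p = 4.04e-06), 16.3, 14.3 and 21.7 CPM in STR (1.48, SE 0.15, edgeR adjusted p = 6.1e-06) and 8.6, 13.8 and 10.5 CPM in VTA (0.68, SE 0.16, edgeR adjusted p = 0.0203). HP and STR did not overlap. The 10.5 CPM in VTA belongs to WT VTA 3, the library with striatal markers. Without the WT libraries numbered 1 or 2 the VTA value was 0.79 and 0.47 (edgeR adjusted p = 0.13 and 0.276). Epha5, which binds ephrin-A ligands, was low in STR at 19.2, 48.0 and 25.2 CPM, below the 48.4 to 127 CPM of the other WT libraries (log2 difference -1.24, SE 0.20, edgeR adjusted p = 0.000443), and higher in HP at 98.0, 108 and 127 CPM (log2 difference 0.96). Epha1 was near the detection limit in HP, at 0, 0.0583 and 0 CPM, and had 0.986, 1.4 and 1.26 CPM in STR.

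The stretch upstream of the start is shown for the 4 EphA genes with opposed regional patterns, 3 high and 1 low in HP, so that their base composition can be seen beside their values. The RefSeq promoter table for GRCm38.p6 held 54 of the 62 genes and 15030 promoters in all. For each, the 250 bases before the outermost start in the table were read on the strand of the gene. RefSeq's gene span reaches further upstream for these 4, so their windows lie partly or wholly inside the annotated gene. The windows are chr1:77515089-77515338 (minus strand) for Epha4, chr16:60605532-60605781 (minus) for Epha6, chr4:28812881-28813130 (plus) for Epha7 and chr4:136956817-136957066 (minus) for Epha8. Sequences run 5′ to 3′, and capitals mark matches on either strand to the GC box GGGCGG or to the E-box CAGATG.
Epha4: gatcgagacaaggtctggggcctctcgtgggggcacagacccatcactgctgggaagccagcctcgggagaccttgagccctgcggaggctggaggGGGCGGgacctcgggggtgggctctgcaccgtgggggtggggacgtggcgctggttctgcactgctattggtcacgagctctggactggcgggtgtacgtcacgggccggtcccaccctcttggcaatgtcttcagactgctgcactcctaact
Epha6: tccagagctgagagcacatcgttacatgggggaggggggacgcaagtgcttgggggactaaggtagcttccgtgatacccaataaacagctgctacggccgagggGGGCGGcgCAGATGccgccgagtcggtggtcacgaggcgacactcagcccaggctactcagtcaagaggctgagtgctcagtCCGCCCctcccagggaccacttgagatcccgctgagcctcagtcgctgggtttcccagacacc
Epha7: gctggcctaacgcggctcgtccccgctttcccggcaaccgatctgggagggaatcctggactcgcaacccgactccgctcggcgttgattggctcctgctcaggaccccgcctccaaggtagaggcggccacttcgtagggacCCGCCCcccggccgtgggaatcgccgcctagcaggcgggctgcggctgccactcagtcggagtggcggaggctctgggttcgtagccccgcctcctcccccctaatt
Epha8: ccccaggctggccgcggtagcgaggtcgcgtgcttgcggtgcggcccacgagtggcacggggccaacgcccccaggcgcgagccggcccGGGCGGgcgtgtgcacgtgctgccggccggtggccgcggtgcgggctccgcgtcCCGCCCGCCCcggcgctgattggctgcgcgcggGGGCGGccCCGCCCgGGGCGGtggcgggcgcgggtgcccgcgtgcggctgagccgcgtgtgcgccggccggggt
GC content was 66.0% in Epha4, 62.8% in Epha6, 69.2% in Epha7 and 84.0% in Epha8. The window of Epha8 held 6 GC box matches, that of Epha6 held 2 and those of Epha4 and Epha7 held 1 each. An E-box CAGATG was found in Epha6 alone of the 4. Over the set, 39 of 54 windows (72.2%) held a GC box, where 49.2% of all promoters in the table did, and the median GC content was 64.4% against 57.6%. The E-box was in 4 of 54 windows (7.41%) against 11.7% of all, the TATA box TATAAA in 2 (3.7%) against 8.96%, and the cAMP response element TGACGTCA in 1 (1.85%) against 2.21%. Both strands were searched, and matches that overlap were each counted. These letters describe the windows only. Whether any factor binds there was not measured.

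Of the 5 EphB receptors, which bind ephrin-B ligands, 3 were higher (beside 17.6% of all genes) and 2 lower (16.7%) in HP. Ephb6, a family member without kinase activity (chr6:41603834-41620509), marked PFc, where it had 174, 191 and 187 CPM. The other 15 WT libraries lay between 38.1 and 100 CPM, with no overlap (log2 difference 1.68, SE 0.15, edgeR adjusted p = 4.64e-06). Ephb1 was lower in HP at 34.8, 41.1 and 33.0 CPM (log2 difference -1.02).

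Plexins, the semaphorin receptors, were called in PFc for 5 of 9 genes (4 higher, 1 lower), beside 28.5% of all genes. In STR 6 were called (2 higher, 4 lower), beside 20.7%, and in HP 3 (2 higher, 1 lower), beside 34.4%. Plxna2 (chr1:194619791-194816869), a receptor for class 3 and class 6 semaphorins, had 183, 129 and 161 CPM in PFc (log2 difference 1.13, SE 0.27, edgeR adjusted p = 0.00628), which was lost without the WT libraries numbered 1 (0.94, edgeR adjusted p = 0.174). Plxna4 had 187, 219 and 230 CPM in HP (log2 difference 1.66, edgeR adjusted p = 3.3e-06) and Plxna1 189, 203 and 216 CPM (1.44, edgeR adjusted p = 3.08e-05). Plxnb2, a receptor for class 4 semaphorins, was higher in STR at 86.9, 134 and 109 CPM (log2 difference 0.77, SE 0.15, edgeR adjusted p = 0.00174). That call was lost without the WT libraries numbered 2 (0.55, edgeR adjusted p = 0.0818). Plxnb3, a receptor of Sema5a known from oligodendrocytes, was higher in SN at 52.9, 41.7 and 55.5 CPM (log2 difference 0.79, SE 0.20, edgeR adjusted p = 0.0286) and lower in HP at 16.7, 18.4 and 16.4 CPM (log2 difference -1.06). The SN call was lost without the WT libraries numbered 1 or 3 (0.76 and 0.68, edgeR adjusted p = 0.355 and 0.194). Oligodendrocyte markers summed to 14800 to 18400 CPM in WT SN, 13300 to 18200 CPM in WT VTA and 13000 to 15900 CPM in WT STR. They summed to 8020 to 13900 CPM in WT Nac, 4740 to 6590 CPM in WT PFc and 3860 to 4890 CPM in WT HP. The part of these markers in the Plxnb3 differences was not tested.

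Robo3, a divergent Robo receptor known from axons that cross the midline (chr9:37416045-37433436), had the largest positive HP difference among genes of the set at or above a mean log2 CPM of 1. It had 4.03, 8.45 and 4.52 CPM in WT HP (log2 difference 2.46, SE 0.54, edgeR adjusted p = 0.00295), and a PFc library at 4.71 CPM overlapped this range. Robo2, a receptor of slits, was higher in HP at 98.0, 109 and 127 CPM (log2 difference 0.73) and in PFc at 134, 88.1 and 95.4 CPM (log2 difference 0.66).

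The KI libraries were then used to see whether the regional directions of WT recurred in separate libraries. With all 18 KI libraries only 6 of 62 genes passed edgeR's F test across regions, beside 12.6% of all genes, and with the 12 KI libraries whose own markers were present 45 did, beside 50.5%. Leaving out the KI libraries of 1 number gave 7 without number 1 (13.1% of all genes), 8 without number 2 (4.06%) and 0 without number 3 (0.0528%). The KI libraries that went against their label held values of other regions. In the library labelled KI HP 2, Slit1 stood at 38.2 CPM, Ntn1 at 78.0 CPM, Sema3f at 28.2 CPM and Epha8 at 15.5 CPM, each far from the WT HP values. In KI Nac 2, Slit1 stood at 340 CPM, Epha4 at 520 CPM and Epha6 at 258 CPM. Of the 36 genes called in WT HP, 34 had the same sign in KI with all libraries, as did 94.2% of all genes called in WT HP. Without the doubtful libraries 36 did, beside 98.1% of all genes called there, and edgeR called 20 of these 36 in KI HP, beside 50.8%. For PFc 24 of 26 had the same sign (94.7% of all genes called in WT PFc) and 11 were called (45.3%). STR gave 20 of 22 with the same sign (91.4%) and 6 called (32.3%), and VTA 9 of 9 (98%) and 6 called (74.1%). SN gave 9 of 9 (92.2%) with 1 called (6.48%), and Nac 2 of 2 (89.4%), both called (45%). For HP, PFc and STR these shares were close to those of all genes called in the same region. KI Nac and KI SN were then represented by 1 library each, whose spread was assumed to be that of the other groups. Over the libraries whose own markers were present, the region with the highest mean was the same in both genotypes for 35 of the 62 genes. The share over all genes was not taken.

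The comparison the study was set up for is KI against WT within each region. EdgeR called none of the 62 genes in any region, and no gene of the whole table (0.0%). At an unadjusted p under 0.05 it found 11 of 60 tested genes of the set in HP (14.2% of all genes) and 14 of 60 in PFc (18.1%). The same count was 0 of 58 for Nac (1.02%), 11 of 61 for STR (10.8%), 16 of 59 for SN (17.6%) and 12 of 59 for VTA (13%). DESeq2 called none in HP (2.04% of all genes) or Nac (0.014%), 1 in PFc (2.77%), 2 in STR (1.47%), 5 in SN (6.85%) and 1 in VTA (1.61%). At a q-value under 0.05 the authors' deposited table also holds 2 of the set in STR (1.11% of all genes) and 5 in SN (5.22%), and none in the other regions. All 3 KI libraries lay on 1 side of all 3 WT libraries for 7 higher and 9 lower genes in HP (23.9% of all genes did either) and for 1 and 17 in PFc (28.5%). There were 2 and 2 such genes for Nac (4.19%), 7 and 2 for STR (17.7%), 7 and 11 for SN (23.9%) and 2 and 11 for VTA (23.4%). In PFc 17 of 60 were lower in this sense, where 16.2% of all genes were, and in VTA 11 of 59, where 12.1% were. The median log2 fold change of the tested genes was -0.13 in PFc, where that of all genes was 0.03, and -0.21 in VTA, where it was -0.01.

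**Figure D4:**
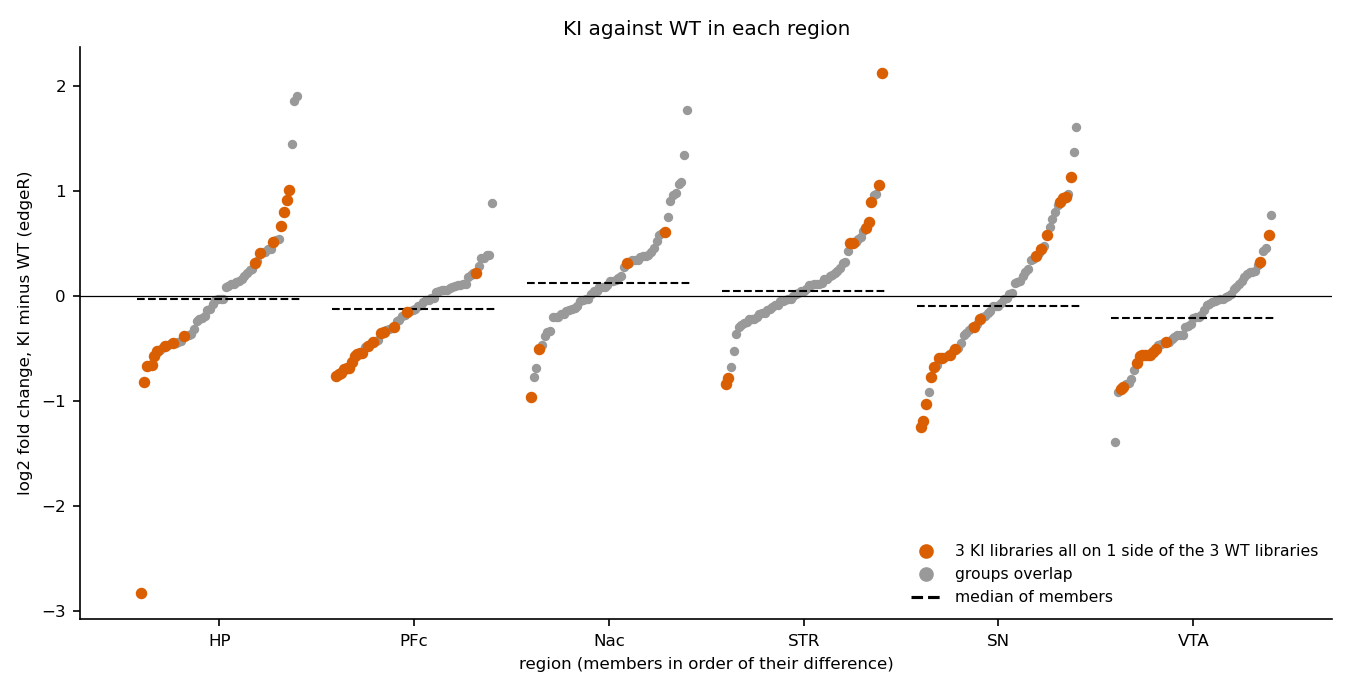
Log2 fold change of KI over WT (edgeR) for each tested axon guidance gene in each region; orange points are genes whose 3 KI libraries all lie on 1 side of the 3 WT libraries, and the dashed line is the median. The medians run from -0.21 in VTA to 0.12 in Nac, and 17 of the 18 orange points in PFc lie below 0.

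In SN, 4 genes were called by DESeq2 with no overlap between genotypes. Sema7a (chr9:57939596-57962865) had 130, 167 and 172 CPM in WT and 59.0, 53.6 and 85.3 CPM in KI, a log2 fold change of -1.25 (SE 0.23, edgeR adjusted p = 0.122, DESeq2 adjusted p = 0.000177). Plxnc1, its plexin receptor (chr10:94790866-94945015), differed the other way, with 36.1, 34.1 and 35.0 CPM in WT and 80.8, 72.3 and 47.5 CPM in KI (log2 fold change 0.93, SE 0.21, edgeR adjusted p = 0.132, DESeq2 adjusted p = 0.00785). Epha7 had 17.9, 22.7 and 23.4 CPM in WT and 50.2, 59.6 and 31.4 CPM in KI (1.13, SE 0.26, edgeR adjusted p = 0.132, DESeq2 adjusted p = 0.00462). Efnb1, a ligand of EphB receptors, had 8.28, 11.1 and 7.16 CPM in WT and 17.4, 18.9 and 14.5 CPM in KI (0.93, SE 0.22, edgeR adjusted p = 0.132, DESeq2 adjusted p = 0.0121). The fifth DESeq2 call, Efnb2, had overlapping groups. The first 2 values of each KI group belong to the libraries labelled SN 1 and SN 2, which lacked midbrain markers. KI SN 3, which had them, was also outside the WT range for all 4 genes but nearest to WT for each. It carried striatal markers as well. Their mean log2(CPM + 1) was 5.86 in KI SN 3 and 4.11 to 4.18 in the WT SN libraries, with the striatal midpoint at 5.65. With that library alone on the KI side, its spread assumed to be that of the WT SN libraries, the log2 fold changes were -0.87 for Sema7a, 0.44 for Plxnc1, 0.56 for Epha7 and 0.71 for Efnb1, and neither edgeR (adjusted p = 0.382 to 0.474) nor DESeq2 (adjusted p = 0.0775 to 0.643) called any of the 62 (0.0% and 1.42% of all genes). Without KI SN 3 the KI side consists of SN 1 and SN 2, which lacked midbrain markers. EdgeR then called 4 of the 62, beside 2.61% of all genes, among them Sema7a (log2 fold change -1.48, adjusted p = 0.0337), Epha7 (1.35, adjusted p = 0.0345) and Plxnc1 (1.12, adjusted p = 0.0326).

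Sema7a and Plxnc1 were also the 2 genes DESeq2 called in STR, in the same directions. Sema7a had 158, 170 and 230 CPM in WT and 103, 108 and 109 CPM in KI (log2 fold change -0.79, SE 0.16, edgeR adjusted p = 0.265, DESeq2 adjusted p = 0.00241). Plxnc1 had 22.9, 31.0 and 25.6 CPM in WT and 57.5, 48.6 and 40.3 CPM in KI (0.90, SE 0.17, edgeR adjusted p = 0.265, DESeq2 adjusted p = 0.00131). Neither pair of groups overlapped. Without KI STR 3 the values were -0.81 for Sema7a (edgeR adjusted p = 0.307, DESeq2 adjusted p = 0.0154) and 1.01 for Plxnc1 (edgeR adjusted p = 0.275, DESeq2 adjusted p = 0.000197). In the same region the choroid plexus and ependymal markers were at 3640 to 10700 CPM in KI and 11100 to 16500 CPM in WT, and the oligodendrocyte markers at 18200 to 25200 against 13000 to 15900 CPM. All 11 striatal markers had a lower mean in KI, with a median log2 fold change of -1.16 and sums of 557 to 2870 against 2110 to 7060 CPM. Their part in the differences was not tested.

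In PFc, DESeq2 called Epha5, an ephrin-A receptor, which had 96.5, 80.0 and 88.8 CPM in WT and 37.4, 60.4 and 59.7 CPM in KI, with no overlap (log2 fold change -0.73, SE 0.20, edgeR adjusted p = 0.208, DESeq2 adjusted p = 0.0417). The lowest KI value is that of the library with striatal markers. Without it the log2 fold change was -0.54, and both tools called it (edgeR adjusted p = 0.0396, DESeq2 adjusted p = 0.00141). In that fit edgeR called 5 of the set, beside 3.85% of all genes: Epha5, Epha7 (log2 fold change -0.53), Efnb2 (-0.48) and Efnb3 (-0.89) lower in KI, and Plxnb1, a receptor of Sema4d, higher (0.47). The adjusted p-values of these 5 ran from 0.0371 to 0.0493. Cell type markers differed in PFc as well. All 8 microglial markers had a higher mean in KI (median log2 fold change 0.71), as did all 8 astrocyte markers (0.43) and all 11 striatal markers (1.3), and all 7 tested markers of choroid plexus and ependyma had a lower one (-2.24). Without KI PFc 1, both remaining KI libraries lay outside the WT range for the astrocyte markers, at 8460 and 9500 CPM against 5400 to 6400 CPM, and for the oligodendrocyte markers, at 4600 and 3350 CPM against 4740 to 6590 CPM. Microglial markers stood at 619 and 739 CPM in these 2 libraries and at 341 to 492 CPM in WT. Their part in the differences was not tested.

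In VTA, DESeq2 called Epha7, which had 23.8, 22.6 and 39.0 CPM in WT and 15.3, 15.9 and 15 CPM in KI (log2 fold change -0.89, SE 0.23, edgeR adjusted p = 0.355, DESeq2 adjusted p = 0.0476). The direction is opposite to that in SN. Without WT VTA 3, the library with striatal markers and the highest of these values, the log2 fold change was -0.59 and edgeR called it too (adjusted p = 0.0277), with Slit1 lower (-0.65, adjusted p = 0.0442) and Sema3c, a class 3 semaphorin, higher (0.47, adjusted p = 0.0488). EdgeR then called 5.72% of all genes. Marker sums for oligodendrocytes were 24700 to 36200 CPM in KI VTA and 13300 to 18200 CPM in WT VTA, for endothelial cells 449 to 459 against 250 to 324 CPM, and for meningeal fibroblasts 220 to 254 against 75.1 to 145 CPM. Their part was not tested.

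In HP and Nac neither tool called a gene of the set, and the 2 smallest edgeR p-values are given. Ntn5, a less studied netrin family member, had 3.91, 5.77 and 6.16 CPM in WT HP and 1.79, 0 and 0.406 CPM in KI HP (log2 fold change -2.83, SE 0.93, edgeR adjusted p = 0.313, no adjusted p from DESeq2), with the value of 0 in the library with striatal markers. Without that library it was -2.22 (edgeR adjusted p = 0.0625, DESeq2 adjusted p = 0.000279). Ephb1 had 34.8, 41.1 and 33.0 CPM in WT HP and 47.3, 90.3 and 51.5 CPM in KI HP (0.80, SE 0.26, edgeR adjusted p = 0.313), and 0.45 without KI HP 2 (edgeR adjusted p = 0.0969). In that fit edgeR called Plxnc1 alone, which was lower in KI (-0.90, adjusted p = 0.0452, beside 0.42% of all genes called), whereas it was higher in KI in STR and SN. Astrocyte markers were at 6360 to 8070 CPM in KI HP and 4710 to 5220 CPM in WT HP, and oligodendrocyte markers at 9540 to 12700 against 3860 to 4890 CPM. In Nac, Ephb3 had 11.1, 12.7 and 13.2 CPM in WT and 14.4, 26.0 and 16.6 CPM in KI (0.60, SE 0.27). Efna5 had 20.9, 20.5 and 21.6 CPM in WT and 10.2, 4.82 and 17.8 CPM in KI (-0.97, SE 0.44). EdgeR's adjusted p was 1.0 for both, and 3 of the 6 Nac libraries went against their label. Without these 3, KI Nac 3 alone was set against WT Nac 1 and Nac 3, with its spread assumed to be theirs. The log2 fold change was then 0.42 for Ephb3 (SE 0.18, edgeR adjusted p = 0.509) and -0.29 for Efna5 (SE 0.13, edgeR adjusted p = 0.512).

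**Figure D5:**
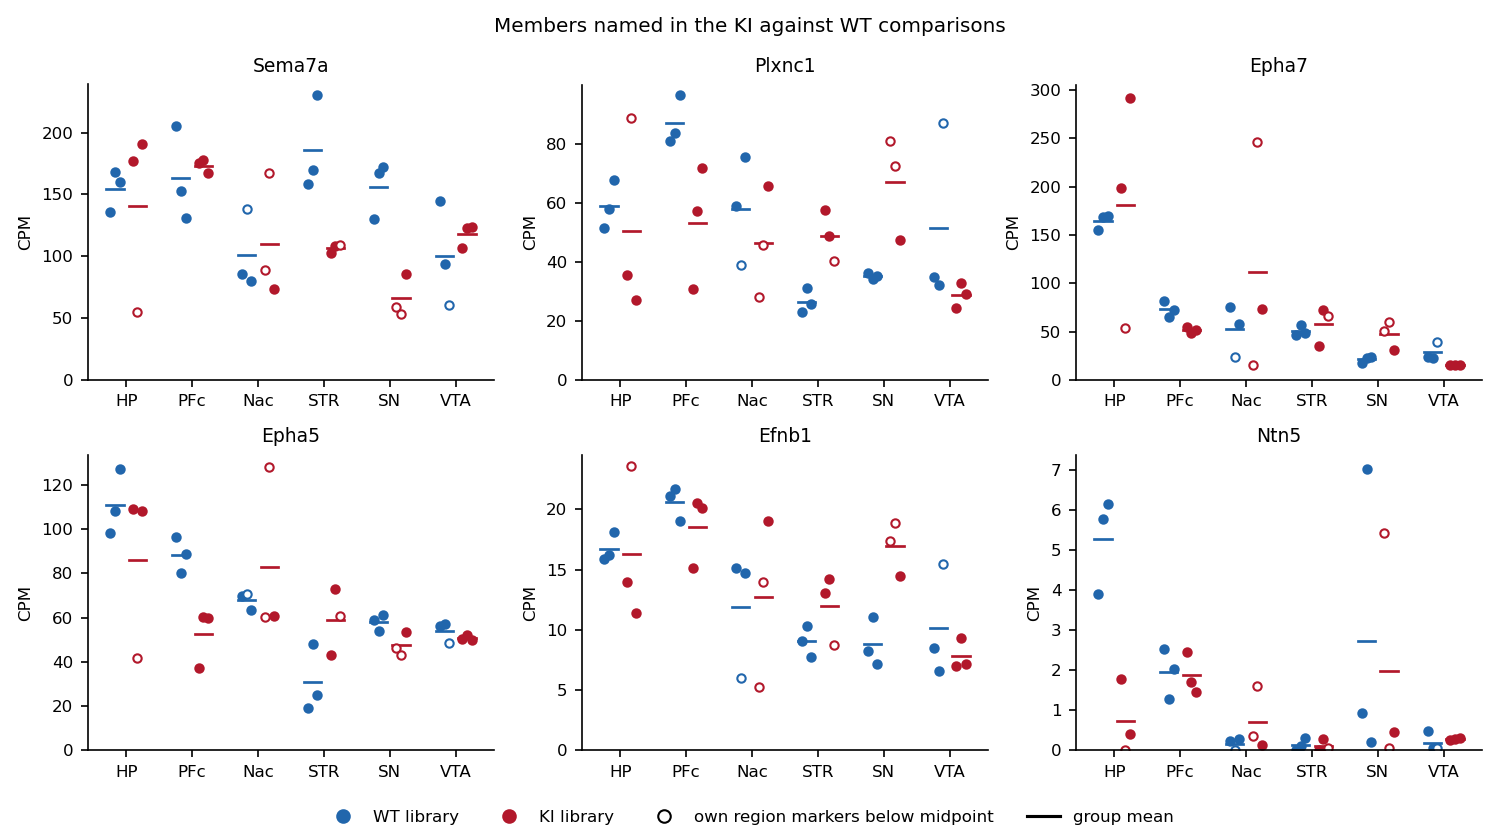
CPM of Sema7a, Plxnc1, Epha7, Epha5, Efnb1 and Ntn5 in each library by region, WT beside KI; points are libraries, lines are group means, and open circles are the libraries whose own region's markers lay below the midpoint. In SN the KI points of Sema7a lie below and those of Plxnc1, Epha7 and Efnb1 above the WT points, with the filled point nearest to WT.

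Summed over the 6 regions by the number in the titles, 3 WT and 3 KI sums were compared. EdgeR called none of the 62 genes (12 at an unadjusted p under 0.05, beside 19.9% of all genes), and DESeq2 called 5, beside 8.65%: Sema7a, Sema3g, Efna5, Plxna1 and Sema4f. Sema7a had 144, 151 and 142 CPM in the WT sums and 118, 113 and 121 CPM in the KI sums (log2 fold change -0.30, SE 0.06, edgeR adjusted p = 0.0742, DESeq2 adjusted p = 0.000495). Sema3g, a semaphorin known from blood vessels, had 8.84, 8.84 and 8.14 against 10, 11.2 and 11.1 CPM (0.34, SE 0.09, edgeR adjusted p = 0.0953, DESeq2 adjusted p = 0.0123). Efna5 had 19.4, 20.5 and 23.4 against 14.7, 17.6 and 14.0 CPM (-0.43, SE 0.11, edgeR adjusted p = 0.109, DESeq2 adjusted p = 0.0178). None of the 3 overlapped between genotypes. Within regions, all 7 endothelial markers had a higher mean in KI in HP, PFc, Nac, STR and VTA, and 6 did in SN. All 5 pericyte markers had a higher mean in KI in HP, PFc, Nac, STR and VTA, and 3 did in SN. The part of vessel cells in the differences was not tested. Of the 62 genes 19 were higher in KI, and the median log2 fold change was -0.09, against -0.00 for all genes. All sums except the WT sum numbered 1 contain libraries that went against their label. With region as a term and the 28 remaining libraries, edgeR called 6 of the set, beside 16.7% of all genes: Plxnb1 (0.32, adjusted p = 0.00134), Sema3c (0.40, adjusted p = 0.00682) and Ephb4 (0.29, adjusted p = 0.0454) higher in KI, and Epha8 (-0.51, adjusted p = 0.0154), Sema4g (-0.28, adjusted p = 0.0358) and Plxna1 (-0.34, adjusted p = 0.0422) lower. These fits count libraries of different regions as independent, and the labels do not say whether a number in the titles marks 1 animal across regions. Plxnb1 was the only 1 of them also called with region as a term and all 36 libraries (0.26, adjusted p = 0.0255, beside 9.47% of all genes).

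Whether the genotype difference varied between regions was tested in a fit to all 36 libraries. EdgeR called none of the 62 genes (9 at an unadjusted p under 0.05, beside 8.73% of all genes) and DESeq2 none either (0.228% of all genes). The smallest p-values were those of Plxnc1 (edgeR adjusted p = 0.563) and Plxna3, a receptor for class 3 semaphorins (edgeR adjusted p = 0.563). There were 8 genes whose KI libraries lay wholly above WT in 1 region and wholly below in another: Epha6, Epha7, Ephb3, Plxna3, Plxnc1, Sema4a, Sema6b and Sema6c. Plxnc1, for example, lay above WT in STR and SN and below it in PFc, at 30.7, 57.3 and 71.6 CPM in KI PFc and 80.7, 83.5 and 96.3 CPM in WT PFc. The same held for 8.76% of all genes tested for genotype by region. The interaction p-values of the 8 were 0.563 to 0.57 after edgeR's adjustment. Without the doubtful libraries edgeR again called none (0.051% of all genes), with Plxnc1 at an adjusted p of 0.0591, and DESeq2 called 9, beside 6.37% of all genes.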

How the data were processed

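RNA-seq of 36 mouse brain libraries, 3 for each of 2 genotypes in 6 regions, was analysed from the gene-level tables. A SMARTER mRNA-seq kit was used, per the labels' protocols, and genome build GRCm38.p6, per the submitters' processing notes. Which aligner and counter were run, and whether strand was used, is not given in the sources used here, so reads of genes that overlap on opposite strands could not be told apart. The authors deposited estimated counts per gene, of which 9.88% were not whole, and these were rounded to whole numbers. The authors also deposited TPM values, used here only to compare levels between genes. Their deposited table of comparisons holds DESeq2's q-values, p-values and log2 fold changes, per the file headers, and was only set beside the calls made here. A further 216 per-sample columns were not used here. Symbols were matched to the RefSeq table of the same build for 18969 of 19025 genes, and for 62 of 62 members.

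Genes were kept by filterByExpr, scaled by TMM (factors 0.9052 to 1.0851) and tested with edgeR's quasi-likelihood test, adjusted by Benjamini and Hochberg over all tested genes, and called under 0.05. Genotypes were compared within a region on its 6 libraries, regions within a genotype on 18, the sums on 3 against 3, and genotype by region on all 36. A region's difference is its mean minus the mean of the other 5. Alternatives were DESeq2, another normalisation, no filter, the replicate number as a block and each replicate left out. Fits without the 8 libraries with another region's markers, and without KI PFc 1, were added after the data were seen. The fits for genotype in HP, for the sums and for the WT regions were tried on simulated counts with known changes, and the other fits were not. Counts of any 2 libraries of a group differed by more than sampling noise, with a lowest chi-square per gene of 6.74.

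The members, the lists and the rule for naming genes were chosen with earlier results of these data known. The rule named, per region, up to 3 called members with the highest and 1 with the lowest WT difference at a mean log2 CPM of at least 1. For each genotype comparison it named members called by edgeR, otherwise up to 5 called by DESeq2 with groups apart, otherwise the 2 with the smallest p. It also named 3 members over all regions, 2 for genotype by region, 5 of the highest and 3 of the lowest level, and 5 of the other guidance genes. Other members were named after their values were seen. The further lists held 24 other guidance receptors and 30 guidance signalling genes. The software was R 4.3.3, edgeR 4.0.16, limma 3.58.1, DESeq2 1.42.0, Python 3.11.15, pandas 2.3.3, numpy 2.4.6 and matplotlib 3.10.9.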

Additional observations from a re-analysis of the deposited data

How the results depend on the processing

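Counts of called genes among the 62 depended on the test and on the libraries kept, and the cause was not tested. DESeq2 in place of edgeR called 1 in PFc, 2 in STR, 5 in SN, 1 in VTA and 5 over the sums, and 19 across KI regions in place of 6 (28.3% and 12.6% of all genes). Without the 8 libraries with another region's markers edgeR called 1 in HP, 3 in VTA and 45 across KI regions, and DESeq2 called 9 in HP (6.11% of all genes), 4 in STR (1.49%), 13 in VTA (12.3%), 48 across KI regions (56.3%) and 9 for genotype by region (6.37%). Without KI PFc 1, edgeR called 5 (3.85%) and DESeq2 10 (10.4%) in PFc. With region as a term the 36 libraries gave 1 and the 28 remaining libraries 6. Leaving out 1 replicate gave 0 to 1 genes in HP, 0 to 5 in PFc, 0 in Nac, 0 in STR, 0 to 4 in SN (4 without KI SN 3), 0 to 3 in VTA (3 without WT VTA 3), 0 in the sums and for genotype by region, 0 to 8 across KI regions and 23 to 36 across WT regions (23 without WT replicate 1, against 42; shares of all genes 14.2% and 48.0%). Over all alternatives 470 values of named genes and 90 counts kept their direction and side of the threshold, 76 and 24 moved, and 23 and 22 named values gained and lost a call. No value changed sign after being called.

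The replicate numbers of WT and KI showed no regular pairing of the libraries. Same-numbered deviations correlated at -0.549 to 0.552 over the regions, and own numbers correlated best for at most 2 of 3 WT libraries in a region. Both extremes were in Nac, where libraries of both genotypes went against their label. The 8 libraries with another region's markers were included and shift these deviations, so whether the numbers pair libraries was not decided. Between regions of WT, same-numbered deviations correlated at -0.543 to 0.708, with 17 of 45 pairs over 0.1. In KI the range was -0.617 to 0.612, with 11 of 45 pairs over 0.1. The region tests without the block took these libraries as independent. With the replicate block edgeR called 0 of the 62 in every KI against WT comparison, in the sums and for genotype by region (at most 0.0902% of all genes). It called 44 across WT regions (49.9% of all genes) and 4 across KI regions (10.8%). Few counts stand behind genes under 1 TPM, Epha1, Efna4 and Epha2, and with 3 libraries a group their values carry the least weight.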

Other observations

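Other genes of the guidance pathways were counted in the same fits. Of 24 other guidance receptors, 19 differed between WT regions by edgeR's F test and of 30 guidance signalling genes 17, beside 48.0% of all tested genes. In HP 14 of the receptors (12 higher, 2 lower) and 11 of the signalling genes (6 higher, 5 lower) were called, beside 34.4% of all genes, and in PFc 10 (7 higher, 3 lower) and 15 (11 higher, 4 lower), beside 28.5%. STR gave 9 (2 higher, 7 lower) and 7 (2 higher, 5 lower), beside 20.7%. SN gave 2 and 2 (7.91% of all genes), VTA 3 and 4 (7.61%), and Nac 0 and 0 (1.2%). Nrp1, the neuropilin that binds class 3 semaphorins, was higher in HP by a log2 difference of 1.95 (SE 0.13, edgeR adjusted p = 1.61e-07). Unc5a, a netrin receptor, was higher in HP (1.57, SE 0.14, edgeR adjusted p = 1.44e-06), where Ntn1 itself was lowest. Crmp1, a mediator of semaphorin signalling (1.13, SE 0.09, edgeR adjusted p = 4.98e-07), Nck2, an adaptor of Eph receptors (1.34, SE 0.12, edgeR adjusted p = 1.85e-06), and Mical2, an actin-oxidising enzyme of the family that acts downstream of plexins (2.46, SE 0.25, edgeR adjusted p = 5.72e-06), were higher in HP too. Between genotypes edgeR called none of either list in any region with all libraries (0.0% of all genes). DESeq2 called 3 of the receptors and 1 of the signalling genes in PFc, beside 2.77% of all genes. It called 2 and 0 in STR (1.47%), 1 and 4 in SN (6.85%) and 2 and 1 in VTA (1.61%). Without WT VTA 3 edgeR called 3 of the receptors in VTA, all lower in KI. In that fit it also called 3 of the signalling genes, 1 higher and 2 lower, beside 5.72% of all genes.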
